A study of Mus musculus with 12 samples.

Results

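Cluster 2 was a group of macrophages that carried the highest level of the chemokine gene Cxcl2 among the 10 macrophage clusters of an atlas of MC38 tumors, together with high levels of the cytokine gene Il1b. Its members were all cells given cluster number 2 in the study's own cell annotation, which came to 18964 of 93126 cells (20.4%), or 27.9% of the 68059 cells in the macrophage clusters. Both aPD1 and host genetics were compared within these cells, because the study asked how the tumor immune microenvironment differs between hosts that do and do not control MC38 tumors under PD-1 blockade.

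MC38 is a colon carcinoma line of C57BL/6J (B6) origin. It was grown under the skin of female mice aged 8 to 12 weeks, in B6 hosts and in F1 hosts from crosses of C57BL/6J with the Collaborative Cross (CC) strains CC001/UncJ, CC002/UncJ, CC007/UncJ, CC036/UncJ, CC075/UncJ, CC079/TauUncJ and CC080/TauUncJ. CC strains are inbred mosaics of several founder genomes, so each F1 host carried a B6 haplotype and a CC haplotype at every autosomal locus. Treatment was 200 µg of aPD1 (clone 29F.1A12) or isotype control antibody (clone 2A3), injected once into the peritoneum at a tumor volume of 75 to 110 mm3, and tumors collected 48 h afterwards were frozen. Thawed cells were tagged with hashing antibodies, sorted to 90% CD45+ and 10% CD45-, and loaded as 12 pools of 4 tumors for 5′ single-cell RNA-seq. The design held 3 isotype and 3 aPD1 tumors for the B6 host and for the CC002, CC036, CC075, CC079 and CC080 F1 hosts, 4 of each for CC001 F1 and 2 of each for CC007 F1. The study classed CC001, CC002 and CC075 F1 as responder strains and CC036, CC079 and CC080 F1 as non-responder strains. B6 and CC007 F1 hosts had no class, so they entered only the comparison of hosts.

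IL-1β, encoded by Il1b, is made as an inactive precursor after pattern recognition receptors or TNF activate NF-κB, and is released once an inflammasome cleaves it. It acts on the IL-1 receptor of stromal, endothelial and myeloid cells, and Cxcl2, Ptgs2 (the prostaglandin synthase COX-2) and Osm (the cytokine oncostatin M) belong to the same early inflammatory program in macrophages. IFN-γ, the main macrophage-activating cytokine of T and NK cells, works through a separate route that reads GAS elements in promoters and induces Irf1, the guanylate binding proteins, MHC class II and Cd274, the gene for PD-L1.

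To show the letters these pathways read, the promoters of a marker of cluster 2 and of a pair of IFN-γ response genes are given here from RefSeq (GRCm38.p6), each from 250 bases before to 50 bases after the start site and all on the + strand. Cxcl2 (chr5:90903649-90903948) encodes a ligand of the neutrophil receptor CXCR2, Gbp5 (chr3:142496684-142496983) a guanylate binding protein that assists inflammasome assembly, and Irf1 (chr11:53769764-53770063, the first of 2 listed starts) a transcription factor of the interferon response. Capitals mark matches to the letters of an NF-κB site (GGG, any 3 bases, then TTCC) in Cxcl2, to those of a GAS element (TTC, any 3 bases, then GAA) in Gbp5 and Irf1, and to those of a paired interferon-response box (GAAA, any 2 bases, then GAAA) in Gbp5.
Cxcl2: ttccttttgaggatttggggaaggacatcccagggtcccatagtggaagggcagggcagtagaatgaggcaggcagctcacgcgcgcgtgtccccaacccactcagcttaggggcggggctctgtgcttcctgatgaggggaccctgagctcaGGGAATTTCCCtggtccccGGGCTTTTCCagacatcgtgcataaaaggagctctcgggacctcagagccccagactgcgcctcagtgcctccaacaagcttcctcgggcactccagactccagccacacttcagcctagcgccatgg
Gbp5: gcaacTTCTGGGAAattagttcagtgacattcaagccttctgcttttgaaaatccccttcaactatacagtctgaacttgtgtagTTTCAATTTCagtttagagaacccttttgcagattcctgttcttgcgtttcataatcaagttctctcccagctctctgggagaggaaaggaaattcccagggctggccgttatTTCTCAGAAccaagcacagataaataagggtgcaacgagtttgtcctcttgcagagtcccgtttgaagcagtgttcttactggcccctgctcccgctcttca
Irf1: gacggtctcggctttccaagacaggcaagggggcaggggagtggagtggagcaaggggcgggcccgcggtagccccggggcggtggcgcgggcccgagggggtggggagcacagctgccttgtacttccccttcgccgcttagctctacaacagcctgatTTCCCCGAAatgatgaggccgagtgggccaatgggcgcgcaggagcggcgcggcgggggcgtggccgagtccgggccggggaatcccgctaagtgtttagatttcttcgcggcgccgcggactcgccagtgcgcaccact

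Both strands of each 300-base window were searched, and a match was taken as a description only. In Cxcl2, 2 matches to the NF-κB letters overlapped at positions -97 and -96 from the start site and another began at -78. The NF-κB letters occurred in 1825 of 32851 promoters in the table (5.56%), and in 9 of 26 promoters of the NF-κB target list (34.6%). GAS letters occurred in 2726 promoters (8.30%) and in 9 of 29 promoters of the IFN-γ response list (31.0%), and the paired box in 1131 (3.44%) and in 13 of those 29 (44.8%). The NF-κB and GAS letters were not particular to either list, since the NF-κB letters were found in 5 of the 29 IFN-γ response promoters (17.2%) and the GAS letters in 6 of the 26 NF-κB target promoters (23.1%), whereas the paired box was in none of those 26. A match to the NF-κB letters in Gbp5 is not capitalised. Of the 5 markers 3, and of the 34 IFN-γ response genes 25, had a promoter in the table. The NF-κB letters were in 1 of those 3 marker promoters, that of Cxcl2, and the GAS letters and the paired box in none.

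Cluster 2 was first checked against its label. Reads summed over cells gave 2440 CPM (counts scaled to a common total) of Il1b in cluster 2 against 552 CPM in the other macrophage clusters together, a difference of 2.14 on the log2 scale. Cxcl2 stood at 1800 against 500 CPM, Osm at 182 against 55.6, Ptgs2 at 119 against 30.8, and Ccl24, an eotaxin that draws eosinophils, at 111 against 35.1. Cluster 2 held the highest level of 2 of these 5 markers, Cxcl2 and Ptgs2, among the 10 macrophage clusters and the second-ranked level of the others. Cluster 4 had as much Il1b (2465 CPM), more Osm (396 CPM) and slightly less Ptgs2 (106 CPM). It is counted among the 10 macrophage clusters here, but its monocyte genes Ace (105 against 1.08 CPM in cluster 2) and Plac8 (3704 against 675 CPM) were high. The granulocytic cluster 16 exceeded cluster 2 for Il1b (13339 CPM), Cxcl2 (18957 CPM), Osm (592 CPM) and Ptgs2 (1490 CPM), but not for Ccl24 (8.89 CPM). These genes helped to form the clusters, so their differences between clusters are a description and were not tested.

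**Figure D1:**
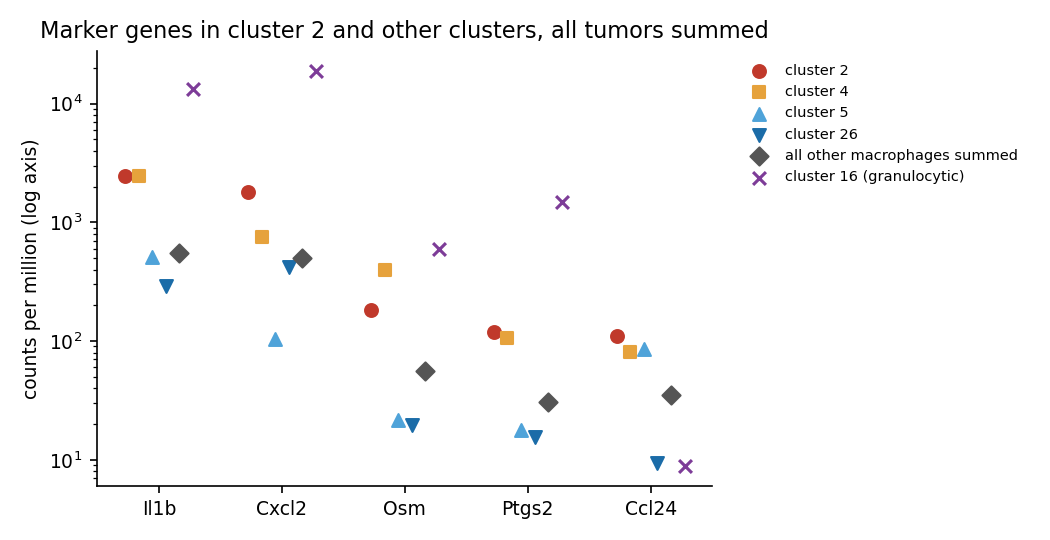
CPM of the 5 marker genes (log axis) in cluster 2, in other macrophage clusters and in the granulocytic cluster, from counts summed over all cells of each cluster. Cluster 2 (Il1b 2440 CPM, Cxcl2 1800 CPM) lay near cluster 4 for Il1b and below granulocytic cluster 16 for every marker but Ccl24.

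Single cells gave the same order. After each cell was thinned to 1000 UMIs, 64.1% of the 18463 cluster 2 cells with enough UMIs had at least 1 UMI of Il1b, 36.1% of Cxcl2, 14.1% of Osm, 8.71% of Ptgs2 and 4.17% of Ccl24. Without thinning the shares were 78.5%, 46.3%, 30.9%, 18.8% and 7.11%. In T cell cluster 1, which should lack these genes, the thinned shares were 0.682%, 0.682%, 0.227%, 0% and 0.227% of 440 cells, whose median depth was 4706.5 UMIs against 3969 in cluster 2. Cluster 5 had an Il1b UMI in 24.8% of cells and a Cxcl2 UMI in 3.66%, and cluster 26 in 13.6% and 12.5%. Cluster 4 came closer to cluster 2, with Il1b in 60.3% of cells, Cxcl2 in 16.3%, Ptgs2 in 7.61% and Ccl24 in 3.09%. Its share of cells with an Osm UMI, 22.6%, was above that of cluster 2.

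Beyond its markers, cluster 2 had high levels of immediate early and MHC class II genes. A list of 20 immediate early and heat shock genes had a median log2 difference of 1.06 over the other macrophages, with 6 highest in cluster 2, and it included the transcription factors Egr2 (2.07), Egr1 (1.74) and Klf4 (1.53). In its 4 heat shock genes the difference was 0.77 for Hspa1a, 0.63 for Dnajb1, 0.26 for Hspa1b and -0.32 for Hsph1. Both kinds of gene also respond to handling of tissue, and the part of freezing, thawing and dissociation in these levels was not tested. Outside that list, the stimulus-induced orphan nuclear receptors Nr4a3 (2.12), Nr4a2 (1.99) and Nr4a1 (1.68) were also high. Cluster 4 had more Nr4a1 (662 against 305 CPM) and nearly as much Klf4 (411 against 430 CPM). It had less Nr4a2 (165 against 197 CPM), Egr1 (308 against 543 CPM), Nr4a3 (63.9 against 122 CPM) and Egr2 (34.1 against 99.8 CPM). Granulocytic cluster 16 had more Egr1 (2139 CPM), Nr4a1 (628 CPM) and Nr4a3 (171 CPM), but less Egr2, Nr4a2 and Klf4. NF-κB target genes had a median of 0.68 and IL-1 and inflammatory mediators one of 0.75, the latter with Il1b and the decoy receptor Il1r2 (1.98) at its top. MHC class II presentation genes were highest in cluster 2 for 8 of 12 members, with a median of 0.68. Over the 7784 genes of at least 10 CPM, 87 were highest in cluster 2 and the median was -0.13.

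Several other lists had medians below that of all genes. The median log2 difference was -0.59 for type I interferon genes, -0.68 for lipid-associated and complement genes, -1.62 for cell cycle genes and -1.80 for resident-like macrophage genes. It lay above that of all genes for IFN-γ response genes (0.11), hypoxia and glycolysis (0.12), alternative activation and repair (0.27) and neutrophil and monocyte chemokines (0.36). Among single genes the lowest included Fcrls (-3.28), a receptor gene of resident macrophages, the chemokine gene Ccl8 (-2.93) and Birc5 (-2.21), which is needed for cell division. All 10 general macrophage markers were measured at 10 CPM or more, but none was highest in cluster 2, and they summed to 12242 CPM against 15256 CPM in the other macrophages (median -0.64). The 8 monocyte genes summed to 2144 against 1447 CPM, and the 8 MC38 and epithelial genes to 32.4 against 18.4 CPM. All 13 T and NK cell genes lay below 10 CPM, with a summed level of 9.07 CPM against 12.2 CPM.

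Cell numbers and depth varied between tumors. A tumor gave 6 to 843 cluster 2 cells (median 419.5), a pool 1215 to 1824, and a cell had a median of 3881 UMIs, against 3305 in the other macrophages. Counts were summed per tumor over its cluster 2 cells, and the 47 tumors with at least 20 cells entered the fits, which left out 1 aPD1 tumor of a CC007 F1 host with 6 cells. The smallest library kept, an isotype tumor of a CC002 F1 host in pool 12, had 25 cells and 103361 UMIs. A T cell receptor or other T cell UMI was found in 299 cells (1.58%), 2026 cells carried a barcode also present in another library, and 1 animal number stood on 2 tumors of CC080 F1 hosts (isotype in pool 3 and aPD1 in pool 4). Each of the 4 hashtags was used for 1 treatment alone, so hashtag and treatment cannot be told apart. Hashtags 0301 and 0302 were on all responder strain tumors but those of CC002 F1 in pool 12. Hashtags 0303 and 0304 were on all non-responder strain tumors but those of CC036 F1 in pool 8. Hashtag and class therefore largely coincided too, and the part of the hashtag was not tested. All tumors of a strain share the genotype of their host, and nothing in the labels separates litters or days, so p-values measure the spread between these tumors.

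Marker levels within cluster 2 differed between host strains. Over all 8 hosts, 4 of the 5 markers differed between strains by edgeR's quasi-likelihood test with Benjamini-Hochberg adjustment, against 40.3% of the 10266 genes tested. Ccl24 differed most (adjusted p = 0.000185), then Ptgs2 (0.000668), Osm (0.00904) and Il1b (0.046), and Cxcl2 did not pass (0.286). With the pool and its shared library as a replicate block, the strain calls fell from 4139 to 1173 genes, and Osm (adjusted p = 0.118 by edgeR) and Il1b (0.14) no longer passed, while Ccl24 (0.0193) and Ptgs2 (0.035) did.

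Ccl24 averaged 311 ± 308 CPM (SD, n = 6) in CC036 F1 tumors and 187 ± 198 CPM (n = 6) in CC080 F1 tumors, but 22.3 ± 12.5 CPM (n = 6) in CC079 F1 tumors, although all 3 are non-responder strains. The CC036 F1 mean was raised by its aPD1 tumor of pool 9, at 909.8 CPM. In the remaining hosts Ccl24 averaged between 32.2 CPM in CC002 F1 and 90.5 CPM in CC001 F1, and the spread in CC001 F1 (SD 144 CPM) exceeded the differences between them. Osm was highest in CC036 F1 (286 ± 89.0 CPM, n = 6) and CC075 F1 (261 ± 139 CPM, n = 6) and lowest in CC007 F1 (88.3 ± 30.9 CPM, n = 3), CC001 F1 (113 ± 79.9 CPM, n = 8) and CC079 F1 (122 ± 29.7 CPM, n = 6). Ptgs2 reached 185 ± 115 CPM in B6 and 185 ± 84.1 CPM in CC075 F1, lay in between in CC002 F1 (140 CPM), CC036 F1 (115 CPM) and CC007 F1 (94.1 CPM), and was lowest in CC079 F1 (48.7 ± 21.3 CPM). For Il1b the order ran from CC002 F1 (2896 CPM), CC075 F1 (2882 CPM) and B6 (2839 CPM) through CC007 F1 (2278 CPM) to CC080 F1 (2140 CPM), CC079 F1 (2092 CPM), CC036 F1 (1952 CPM) and CC001 F1 (1895 CPM). Neighbours in that order differed by less than the larger of their SDs within a host. CC036 F1 and CC075 F1 tumors were all from pools 8 to 11, and CC079 F1 tumors from pools 1, 2 and 5. CC001 F1 tumors came from pools 1, 2, 4 and 12, so host and pool cannot be fully told apart here.

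**Figure D2:**
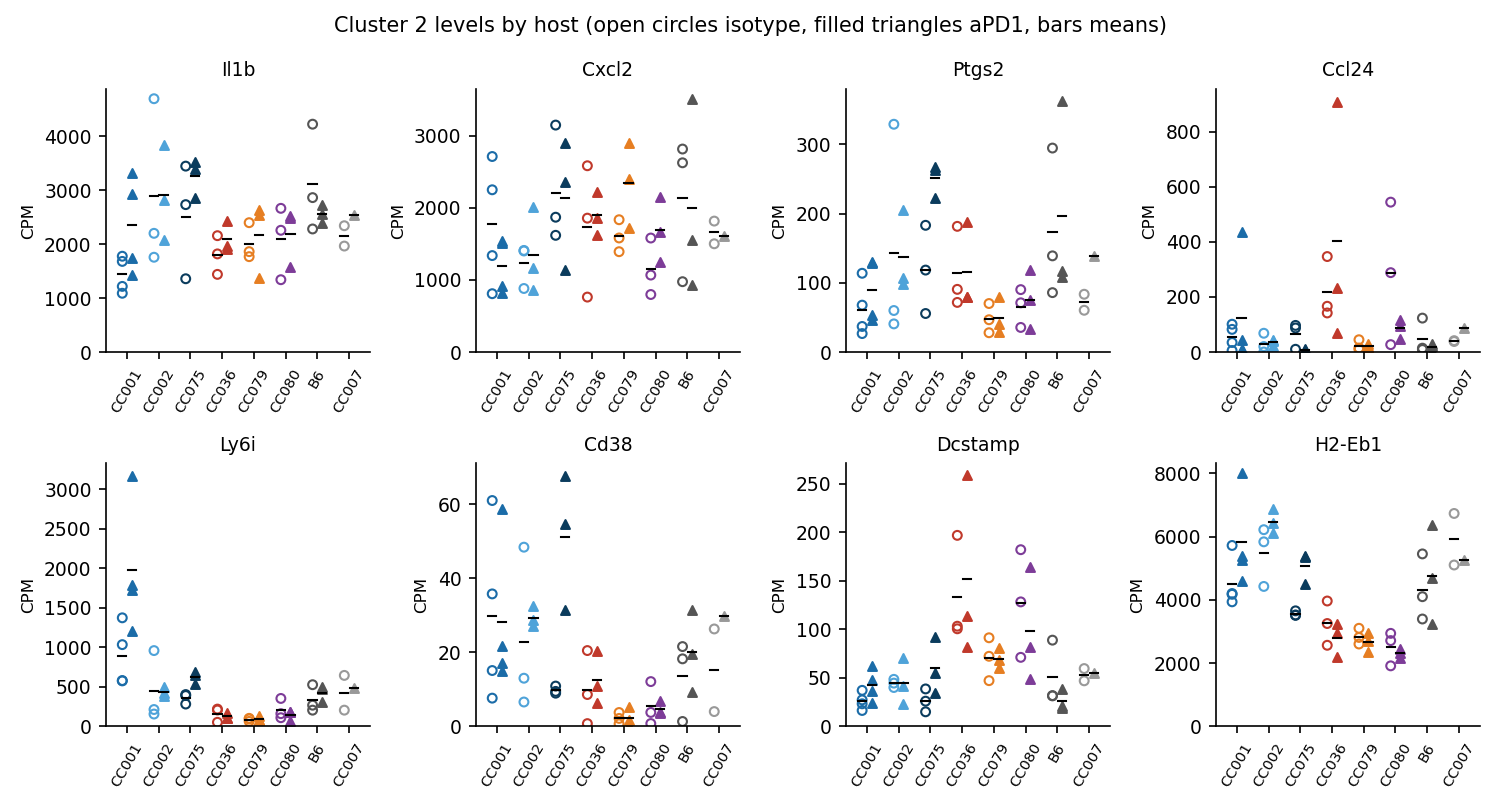
CPM in the cluster 2 cells of each tumor (isotype as open circles, aPD1 as triangles, means as bars) for 8 genes, by host. Mean Ccl24 was high in CC036 F1 (311 CPM, raised by an aPD1 tumor at 909.8 CPM) and CC080 F1 (187 CPM) tumors but not in CC079 F1 (22.3 CPM), and Ly6i averaged 1431 CPM in CC001 F1 against 89.4 to 492 CPM in the other hosts.

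The first comparison of classes set the 20 tumors of responder strains against the 18 of non-responder strains, with treatment as a covariate. In responder strain tumors, cluster 2 had higher levels of 6 of 11 MHC class II and 14 of 32 IFN-γ response genes and of the IL-1 decoy receptor gene Il1r2, and lower levels of Fn1 (fibronectin), Ccr2 (the chemokine receptor of recruited monocytes) and Dcstamp, a membrane protein of fusing macrophages and osteoclasts. In isotype tumors alone 11 genes passed in all. H2-Eb1 and Dcstamp were among them, but no IFN-γ response gene was, nor Il1r2, Fn1 or Ccr2. None of the 5 cluster markers passed the test in the fit without the pool as a block. At an adjusted p below 0.05 edgeR called 359 of 9229 genes (3.89%), 216 higher (2.34%) and 143 lower (1.55%) in responder strains. With counts scaled by library size alone the split was 186 higher and 212 lower. Tumors counted as replicates in these fits, although class belongs to the strain. With 1 library per strain, 3 against 3, edgeR called 4 of 12034 genes. None of the class differences named here passed in that fit.

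Il1b ranged over 1088, 1765 and 4692 CPM (lowest, median, highest) in responder isotype tumors and over 1426, 2898 and 3838 CPM with aPD1, against 1339, 1860 and 2662 CPM and 1372, 2435 and 2628 CPM in non-responder tumors. The groups overlapped throughout, and the log2 difference between classes was 0.28 ± 0.15 (SE, edgeR adjusted p = 0.315). Ptgs2 was 0.67 ± 0.27 higher (adjusted p = 0.156), Cxcl2 differed by -0.05 ± 0.18 (0.95), Osm by -0.29 ± 0.28 (0.649) and Ccl24 by -1.51 ± 0.54 (0.111). None of these passed the test, and Ccl24 in particular was split within the non-responder class by host. With the pool as a replicate block Ptgs2 (0.66, edgeR adjusted p = 0.038) and Osm (-0.46, 0.0353) passed, and Il1b, Cxcl2 and Ccl24 did not. Osm also passed with a term for pools 1 to 6 against 7 to 12 (-0.46, edgeR adjusted p = 0.0481) and for 4 groups of consecutive pools (-0.55, 0.0153), both read from the order of library identifiers and named as batches by no label. Without CC001 F1 tumors Il1b (0.50, edgeR adjusted p = 0.0229), Ptgs2 (1.01, 0.0214) and Ccl24 (-2.27, 0.0217) passed, and so did Ccl24 without CC079 F1 (-2.04, 0.0245) and Ptgs2 without CC036 F1 (0.99, 0.0411).

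MHC class II genes, which present peptides to CD4 T cells, were called in 7 of 11 members tested, 6 of them higher in responder strains, with a median log2 difference of 0.33 against -0.01 over all genes. With the pool as a replicate block 4 of 12 were higher and 1 lower, and H2-Aa lost its call (adjusted p = 0.0394 by edgeR without and 0.0615 with the block). Mean H2-Aa in responder and non-responder tumors was 5479 and 5201 CPM with isotype, and 6989 and 4574 CPM with aPD1. H2-Eb1 (chr17:34305867-34316674, + strand) spanned 3510, 4188 and 6221 CPM in responder isotype tumors and 4488, 5388 and 8018 CPM with aPD1, but 1912, 2811 and 3964 CPM and 2160, 2444 and 3234 CPM in non-responder tumors. Of the 20 responder values 16 exceeded the highest non-responder value, and the log2 difference was 0.94 ± 0.10 (edgeR adjusted p = 1.41e-08). H2-Ab1 differed by 0.50 (0.00731), whereas H2-DMb2, a chaperone subunit of peptide loading, went the other way by -1.49 (2.05e-06). Reads of CC haplotypes were mapped to the B6 reference, so H2, Ly6 and Gbp family genes can gain or lose counts with the host haplotype, and their values are uncertain in that respect. The same holds for Ly6c1 (-4.22) and for H2-Q2 (-5.42), which was 1 of 3 genes (0.0325%) whose CPM did not overlap between the classes.

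IFN-γ response genes were called higher in 14 of 32 members tested, none was called lower, and all 32 had a positive log2 difference (median 0.63). These calls came from isotype and aPD1 tumors together, and none of the genes passed in isotype tumors alone. Gbp3, Gbp4, Gbp5, Gbp6, Gbp7 and Gbp8 were among the 14, and the mapping uncertainty given above for Gbp family genes holds for them. Cxcl9, the ligand that draws CXCR3+ T cells, ran over 150, 755.7 and 1678 CPM in responder isotype tumors and 529, 1379 and 2262 CPM with aPD1, and over 182, 373.5 and 1020 CPM and 374.4, 492.3 and 807.8 CPM in non-responder tumors. Its log2 difference was 1.01 ± 0.23 (edgeR adjusted p = 0.00731), and those of Gbp4 and Gbp5 were 1.27 ± 0.25 (0.0011) and 1.01 ± 0.24 (0.00817). Type I interferon genes were called in 4 of 21 members, among them Ifi44 (2.41 ± 0.47, edgeR adjusted p = 0.00127) and Rsad2 (1.36 ± 0.34, 0.0139), which encodes the antiviral enzyme viperin. Ifi44 was uneven between responder tumors, with a median of 6.69 and a highest value of 75.4 CPM with isotype. With aPD1 these were 13.6 and 112.7 CPM. Its non-responder medians were 4.78 CPM with isotype and 5.70 CPM with aPD1. The T cell chemokine gene Ccl5 differed by 1.37 ± 0.37 (0.023). Its medians in responder and non-responder strains were 229 and 220 CPM with isotype, and 626 and 215 CPM with aPD1.

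Among the other lists, NF-κB targets gave 2 higher of 24 (median 0.21), IL-1 and inflammatory mediators 2 higher of 18 (median 0.21), and cell cycle genes none of 15, although all 15 had a negative difference (median -0.34). Il1r2, which binds IL-1 without signalling, lay at 37.98, 61.8 and 203.2 CPM in responder isotype tumors and 56.1, 87.9 and 141.7 CPM with aPD1, and at 27.5, 42.4 and 92.0 CPM and 17.5, 38.8 and 71.0 CPM in non-responder tumors. Its log2 difference was 0.93 ± 0.17 (edgeR adjusted p = 0.000694).

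Outside the lists, the gene higher in responder strains with the smallest p was Ly6i, a lymphocyte antigen 6 gene. It stood at 154.6, 487.7 and 1372 CPM in responder isotype tumors and 384.7, 671.8 and 3173 CPM with aPD1, against 50.1, 108.1 and 351.9 CPM and 62.5, 106.9 and 183.9 CPM in non-responder tumors, and 17 of the 20 responder values exceeded the highest non-responder value. The log2 difference was 2.63 ± 0.32 (edgeR adjusted p = 2.02e-07), and CC001 F1 tumors averaged 1431 ± 838 CPM (n = 8) against 438 CPM in CC002 F1 and 492 CPM in CC075 F1. Cd38, an enzyme that consumes NAD, was 2.28 ± 0.34 higher (1.66e-05).

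Genes lower in responder strains included Dcstamp, at 14.9, 32.1 and 48.4 CPM in responder isotype tumors and 22.6, 44.7 and 91.7 CPM with aPD1, against 47.0, 100.5 and 196.8 CPM and 49.2, 81.2 and 259 CPM in non-responder tumors. Of the 20 responder values 14 lay under the lowest non-responder value (log2 difference -1.40 ± 0.21, edgeR adjusted p = 1.44e-05). Fn1 differed by -0.75 ± 0.14 (0.000654), Ccr2 by -0.40 ± 0.07 (0.000617) and Sulf2, a sulfatase that edits heparan sulfate, by -0.67 ± 0.11 (8.09e-05).

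The class calls depended on how the tumors were combined. The 359 genes became 680 in aPD1 tumors alone and 11 in isotype tumors alone, and the IFN-γ response count went from 14 to 29 and to 0, with medians of 1.04 and 0.18. With tumors of a strain and treatment summed to 12 libraries, 27 genes were called, H2-Eb1 (0.94, edgeR adjusted p = 0.0183), Cd38 (2.28, 0.0296), Dcstamp (-1.34, 0.0296), Ly6i (2.43, 0.0491) and Il1r2 (0.99, 0.0491) among them, and no IFN-γ response gene. Fn1 (edgeR adjusted p = 0.165), Ccr2 (0.107), Sulf2 (0.158) and Cxcl9 (0.11) did not pass there, and in isotype tumors alone Fn1 was at -0.36 and Ccr2 at -0.35 without passing. Il1r2, Cd38, Sulf2 and Cxcl9 did not pass in isotype tumors alone either. With 1 library per strain, 3 against 3, 4 genes were called (AW112010 and 3 predicted genes), and none of the class differences described above passed, H2-Eb1 (edgeR adjusted p = 0.156), Cd38 (0.156) and Dcstamp (0.244) included. The pool as a replicate block raised the count to 906 of 10438 (8.68%), with 24 IFN-γ response genes, 7 IL-1 and inflammatory mediators and 5 NF-κB targets among them, and leaving out a strain gave 694 calls without CC001 F1, 576 without CC036 F1 and 238 without CC075 F1. IFN-γ response calls then ranged from 2 (without CC079 F1) to 25 (without CC001 F1), with 5 without CC002 F1 or CC075 F1.

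Treatment was compared next. In responder strain tumors, 20 of 33 IFN-γ response and 10 of 21 type I interferon genes were higher in cluster 2 of aPD1 than of isotype tumors 48 h after the dose, with Nos2, the inducible nitric oxide synthase, at their head. The IL-1 receptor antagonist gene Il1rn, the cytokine gene Il15 and 4 of 12 MHC class II genes also rose, and 6 of 20 endoplasmic reticulum chaperone genes and 6 of 20 ribosome biogenesis genes fell, in lists drawn up after their genes were seen among the calls. Cxcl2, Osm and Ccl24 did not pass the test, and Il1b and Ptgs2 did not pass in the fit without pairs but did with tumors paired by pool and strain. With strain as a covariate, edgeR called 314 of 9366 genes (3.35%), 204 up (2.18%) and 110 down (1.17%), from 10 aPD1 and 10 isotype tumors. With library size scaling the split was 150 up and 120 down.

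**Figure D3:**
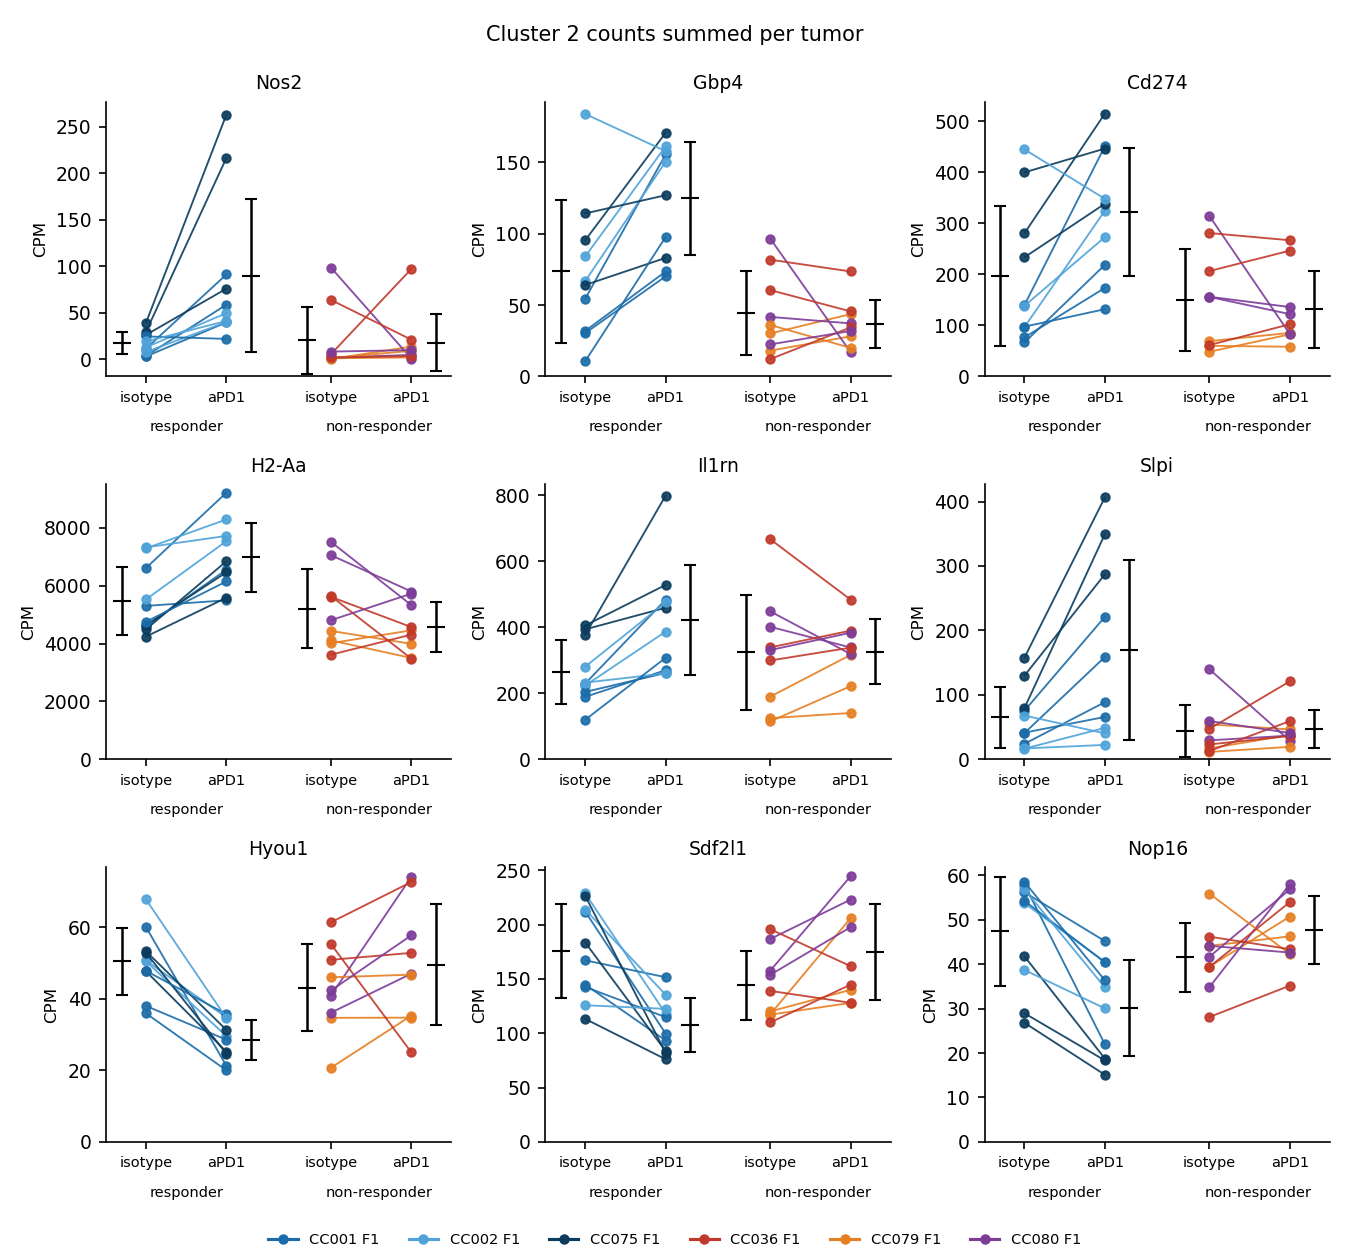
CPM of 9 genes in cluster 2 of individual tumors (points, colored by host) in isotype and aPD1 tumors of responder and non-responder strains (n = 10, 10, 9 and 9), with lines joining tumors of the same pool and strain and bars giving mean and SD. Hyou1 fell in responder strains from a median of 50.6 to 29.0 CPM, while its medians in non-responder strains were 42.3 and 47.0 CPM.

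Of the 33 IFN-γ response genes tested, 20 rose, none fell and all 33 had a positive log2 change, with a median of 0.77 against 0.01 over all genes. With the pool and strain pair as a replicate block 25 rose, Cxcl9 (0.78, edgeR adjusted p = 0.032) and Gbp5 (0.83, 0.00977) among them, which had not passed without it (0.137 and 0.0512). Nos2 (chr11:78920787-78960254, + strand) went from 3.26, 16.2 and 39.3 CPM (lowest, median, highest) to 22.1, 54.3 and 262.9 CPM, and was higher in the aPD1 tumor in 9 of 10 pairs from the same pool and strain. The log2 change was 2.34 ± 0.29 (SE, edgeR adjusted p = 0.000283). Iigp1, a GTPase that attacks the vacuoles of intracellular parasites, rose by 1.51 ± 0.30 (0.0133), Gbp4 by 1.05 ± 0.22 (0.0156), from a median of 65.5 to 138.7 CPM, and Il18bp, a secreted inhibitor of IL-18, by 1.16 ± 0.24 (0.0134).

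Genes for the checkpoint ligand PD-L1 and for the factor IRF1 were looked at because the antibody blocks the receptor of PD-L1, and were chosen after their values were seen. Cd274 (chr19:29367455-29388095, + strand) moved from 66.7, 139.3 and 445 CPM to 131.9, 331.9 and 515.5 CPM in responder strains, a rise of 1.00 ± 0.23 (edgeR adjusted p = 0.0213) seen in 9 of 10 pairs. Irf1, whose promoter is printed above, rose by 0.78 ± 0.20 (0.0327) in 8 of 10 pairs.

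Type I interferon genes rose in 10 of 21 members (median 0.55), none fell, and among them were Oasl1 (0.84), Ifit2 (0.71) and Irf7 (0.66, edgeR adjusted p = 0.0371), a regulator of interferon production. MHC class II genes rose in 4 of 12, with all 12 positive and a median of 0.35. H2-Aa went from 4241, 5029 and 7329 CPM to 5496, 6702 and 9222 CPM and was higher in 10 of 10 pairs (0.41 ± 0.10, 0.0269), as was H2-Eb1 (0.42 ± 0.10, 0.0296), and Ciita, the master regulator of MHC class II transcription, rose by 0.56 (0.0361).

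**Figure D4:**
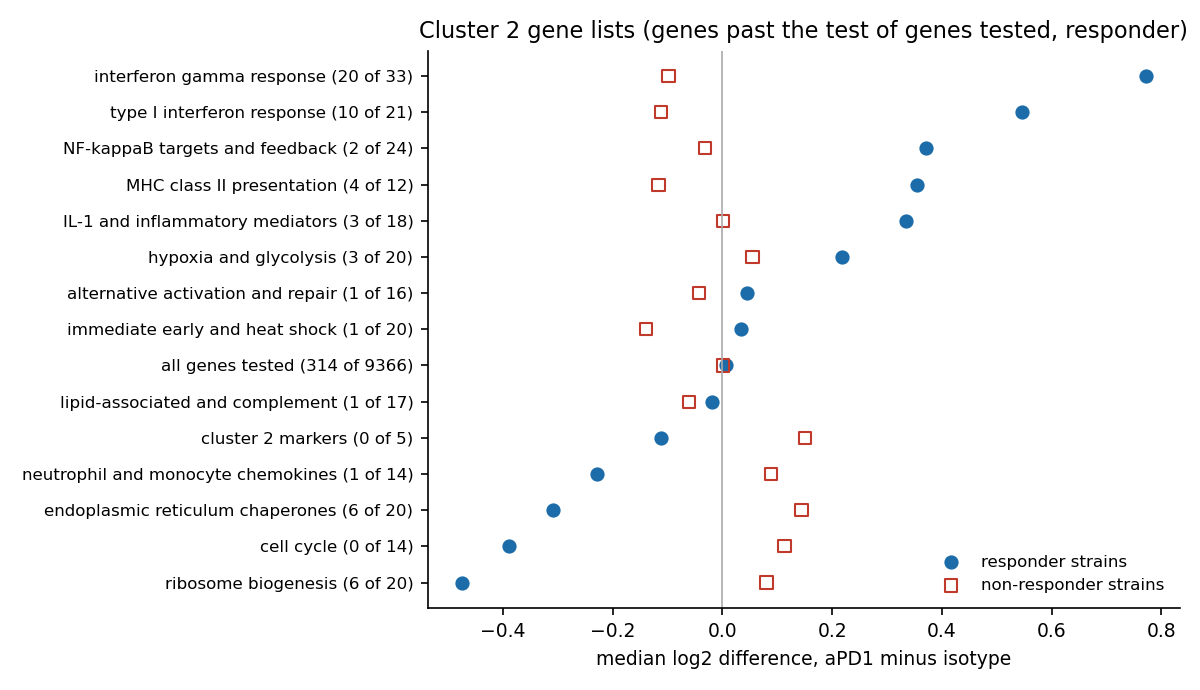
Median log2 difference (aPD1 minus isotype) of each gene list in cluster 2, in responder strains (filled circles) and non-responder strains (open squares), with the number of genes that passed the test in responder strains of those tested. IFN-γ response genes had medians of 0.77 and -0.10, and ribosome biogenesis genes, a list drawn up after its genes were seen among the calls, -0.47 and 0.08.

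IL-1 and inflammatory mediators rose in 3 of 18 members (median 0.34): Il1rn, Ptges and Casp4, and 6 rose with the pool and strain pair as a replicate block, which called 357 of 10015 genes (3.56%). Il1rn (chr2:24336853-24351494, + strand), whose product blocks the IL-1 receptor, went from 119.5, 230.8 and 405.7 CPM to 260.1, 423.2 and 799.6 CPM, higher in 10 of 10 pairs (0.76 ± 0.14, edgeR adjusted p = 0.0099). Ptges, the terminal synthase of prostaglandin E2, rose by 1.33 ± 0.29 (0.0167) at low levels, from a mean of 4.91 to 12.5 CPM.

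Il1b itself had medians of 1765 and 2898 CPM, was higher in 7 of 10 pairs and changed by 0.45 ± 0.20, which did not pass (adjusted p = 0.199 by edgeR). Ptgs2 changed by 0.82 ± 0.30 (0.128). Both passed with the pool and strain pair as a replicate block, Il1b at 0.47 (edgeR adjusted p = 0.0428) and Ptgs2 at 0.80 (0.04). Ptgs2 also passed with the same terms for 2 (0.81, 0.0393) and 4 (0.83, 0.0356) groups of pools, which no label names as batches, and with at least 50 cells per tumor (0.97, 0.0386). With no expression filter Il1b (0.48, edgeR adjusted p = 0.000211) and Ptgs2 (0.84, 2.19e-11) passed as well. Their changes were close to those of the filtered fit and only the p-values differed, so these passes add no support. With or without the block, the other markers did not pass. In the fit without it Cxcl2 changed by -0.17 ± 0.23 (0.746), Osm by -0.11 ± 0.35 (0.916) and Ccl24 by -0.24 ± 0.67 (0.90). The markers helped to place cells in cluster 2, so these changes are those of cells already chosen in part by them. Over all macrophage cells, cluster 2 included, Il1b changed by 0.80 (edgeR adjusted p = 0.294) and Ptgs2 by 1.09 (0.241). No marker passed there. Within cluster 2, NF-κB targets rose in 2 of 24, Birc3 and Tnfaip2, and in 4 with the block, and all 24 changes were positive (median 0.37). Birc3, an inhibitor of cell death in TNF signalling, went from a median of 79.5 to 111.4 CPM in 10 of 10 pairs (0.55 ± 0.09, 0.0056).

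Other genes that rose were Slpi, a secreted protease inhibitor, from a median of 54.5 to 123.6 CPM (1.45 ± 0.23, edgeR adjusted p = 0.00434), and Ndrg1, a hypoxia-induced gene, from 81.8 to 129.9 CPM (0.77 ± 0.13, 0.00501). Il15, which supports NK cells and memory CD8 T cells, went from 9.27, 12.7 and 17.1 CPM to 16.8, 23.8 and 41.0 CPM in 10 of 10 pairs (0.96 ± 0.16, 0.00501), and the groups overlapped between 16.8 and 17.1 CPM alone. Csf3r, the receptor gene for G-CSF and a granulocyte marker, rose by 0.79 (0.0099).

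Genes that fell belonged in part to protein folding in the endoplasmic reticulum and to ribosome assembly, and because both of these lists were drawn up from genes seen among the calls, their counts and common sign are a description and support nothing. Of 20 chaperone genes tested 6 fell and all 20 changes were negative (median -0.31). Hyou1 (chr9:44379490-44392369, + strand), a chaperone induced by hypoxia and misfolded protein, went from 35.9, 50.6 and 67.7 CPM to 19.98, 29.0 and 35.7 CPM and was lower in 10 of 10 pairs (-0.76 ± 0.11, edgeR adjusted p = 0.00191). It was 1 of 2 genes (0.0214%) whose CPM did not overlap between the aPD1 and isotype tumors, the other being Kti12, a factor of tRNA modification. Sdf2l1, a component of the chaperone complex, fell by 0.74 (0.00501) and Manf, a secreted stress-induced factor, by 0.53 (0.0167).

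Of 20 ribosome biogenesis genes tested 6 fell and all 20 were negative (median -0.47). Nop16, a nucleolar protein, went from 26.8, 54.0 and 58.5 CPM to 15.1, 32.4 and 45.2 CPM, lower in 10 of 10 pairs (-0.71 ± 0.11, edgeR adjusted p = 0.00438), and Dkc1, which modifies ribosomal RNA, by -0.78 ± 0.15 (0.0099) in 10 of 10 pairs. Cell cycle genes gave no call, with all 14 changes negative (median -0.39). Fn1 fell by 0.61 (0.0337) in 9 of 10 pairs. Over all genes, 53 (0.566%) were higher and 57 (0.609%) lower in all 10 pairs, of which 35 and 25 passed the test.

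Leaving out any 1 responder strain took the 314 calls to 62 (without CC001 F1), 51 (without CC002 F1) or 33 (without CC075 F1), and the IFN-γ response count from 20 to 2, 1 and 10. No MHC class II gene passed in any of those fits of 2 strains. Requiring 50 cells per tumor dropped the isotype tumor of pool 12 with 25 cells and raised the calls to 529. With all macrophage cells in place of cluster 2, edgeR called 1 of 11800 genes (0.00847%). All 314 genes were tested there, all had the same sign, and 256 had an unadjusted p below 0.05 by edgeR. The macrophage sums hold the cluster 2 cells in which these genes were chosen, so that agreement was in part fixed in advance. Whether the aPD1 effect differed between cluster 2 and the other macrophages was not tested.

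In non-responder strain tumors no gene of 9560 (0%) passed by edgeR, with 231 at an unadjusted p below 0.05, and DESeq2 also called 0 genes. Nos2 had medians of 2.15 CPM in 9 isotype and 9.34 CPM in 9 aPD1 tumors, Cd274 of 155.9 and 102.4 CPM, Il15 of 13.1 and 12.9 CPM and H2-Aa of 4808 and 4458 CPM. IFN-γ response genes had a median log2 change of -0.10, type I interferon genes -0.11, MHC class II genes -0.12, and the lists drawn up from the responder calls 0.14 (chaperones) and 0.08 (ribosome biogenesis), against 0.00 over all genes. The marker of smallest p was Cxcl2, with means of 1497 and 1978 CPM, a change of 0.42 ± 0.18 (edgeR adjusted p = 0.9995) in 7 of 9 pairs. It passed with no expression filter (0.45, edgeR adjusted p = 0.0153), at nearly the same change, so that pass adds no support.

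Whether the aPD1 effect differed between the classes was tested as an interaction over the same tumors. It passed for 14 of 9875 genes (0.142%), 8 with a positive difference of effects, responder minus non-responder strains (0.081%), and 6 with a negative one (0.0608%). No IFN-γ response, type I interferon or MHC class II gene passed, although the difference of effects was positive for all 33, 21 and 12 members (medians 0.84, 0.64 and 0.38). That count of 0 depended on the fit: DESeq2 called 4 IFN-γ response, 3 type I interferon and 4 MHC class II genes, and edgeR with the pool and strain pair as a replicate block called 3, 3 and 5, all with a positive difference. Over all genes these fits called more as well, 153 of 9875 (1.55%) and 99 of 10438 (0.948%). H2-Aa had an adjusted p of 0.0574 without the block, 0.0222 with it and 0.0193 by DESeq2. Nos2 had a difference of 2.15 (edgeR adjusted p = 0.235) and Cd274 of 1.10 (0.138). Of the cluster 2 markers, Cxcl2 (-0.59, edgeR adjusted p = 0.00481) and Ptgs2 (0.66, 0.00429) passed with no expression filter, a fit that called 383 genes. Both differences were close to those of the filtered fit, where neither passed, so these passes add no support.

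Among the genes that did pass, Il15 rose in 10 of 10 responder pairs and was higher in 4 of 9 non-responder pairs (difference 1.09 ± 0.24, edgeR adjusted p = 0.0438), and Birc3 was higher in 10 of 10 and 3 of 9 pairs (0.66 ± 0.14, 0.033). Csf3r had a difference of 1.22 ± 0.26 (0.033), and Epsti1, an interferon-induced gene, one of 0.60 ± 0.11 (0.012). The chaperone genes went the other way. Sdf2l1 was lower in 10 of 10 responder pairs and higher in 7 of 9 non-responder pairs (-0.999 ± 0.18, 0.012), Hyou1 lower in 10 of 10 and higher in 8 of 9 (-0.98 ± 0.21, 0.033), and Manf lower in 9 of 10 and higher in 8 of 9 (-0.81 ± 0.17, 0.033). Nop16 was lower in 10 of 10 and higher in 6 of 9 pairs (-0.88 ± 0.16, 0.012). Leaving out CC075 F1 or CC080 F1 left 0 calls and leaving out CC079 F1 left 1. The pool and strain pair as a replicate block gave 99 calls and the fit without the 2 tumors sharing an animal number gave 6.

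To ask whether the class difference was larger in cluster 2 than elsewhere, cluster 2 was fitted with the other macrophages of the same 38 tumors. The test of that difference passed for 27 of 11710 genes (0.231%). The responder minus non-responder difference was higher in cluster 2 for 11 of them (0.0939%) and lower for 16 (0.137%). None of the 5 markers and none of 33 IFN-γ response genes passed. Osm did with no expression filter (0.32, edgeR adjusted p = 0.00178), at a difference close to the filtered one, which adds no support. Larger in cluster 2 were the class differences of Slpi (by 1.09 ± 0.21, edgeR adjusted p = 0.0109), Rsad2 (0.89 ± 0.18, 0.0131) and the actin cross-linker gene Actn1 (0.62 ± 0.10, 0.00121). Lower, with the sign kept, were those of Cd72, a receptor shared with B cells (-0.49 ± 0.07, 3.93e-05), Ms4a7 (-0.50 ± 0.10, 0.0109), H2-Eb1 (-0.49 ± 0.11, 0.0302) and Cd74, the invariant chain of MHC class II (-0.45 ± 0.10, 0.0276). Within cluster 2 mean Ms4a7 was lower in responder strains, at 183 against 215 CPM with isotype and 175 against 206 CPM with aPD1. Against clusters 5 and 26 alone 14 genes passed, 8 of them among the 27. Actn1 (0.58, edgeR adjusted p = 0.00335) and Cd72 (-0.45, 0.00335) still passed, whereas Slpi (0.88, 0.416), Rsad2 (0.31, 0.809), Ms4a7 (-0.40, 0.122), H2-Eb1 (-0.44, 0.148) and Cd74 (-0.42, 0.101) did not.

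The abundance of cluster 2 was compared by the exact Wilcoxon rank-sum test, two-sided, with adjustment over 10 comparisons. None passed. Cluster 2 made up 16.03 ± 4.99% (SD, n = 10) of all cells in responder isotype tumors and 23 ± 6.39% (n = 10) in aPD1 tumors, a difference of 6.96 percentage points (exact p = 0.0232, adjusted p = 0.116) seen in 7 of 10 pairs. In non-responder strains the shares were 17 ± 4.21% and 22.2 ± 4.51% (n = 9 each, difference 5.17, exact p = 0.0400, adjusted p = 0.133), higher with aPD1 in 7 of 9 pairs. As a share of macrophages, cluster 2 went from 22.5 ± 7.07% to 32.3 ± 8.98% in responder strains (exact p = 0.0185, adjusted p = 0.116) and from 26.2% to 28.1% in non-responder strains (exact p = 0.730). The test of a difference in change between classes did not pass (exact p = 0.842 of all cells and 0.182 of macrophages), nor did the tests between classes within a treatment (exact p from 0.315 to 0.842).

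**Figure D5:**
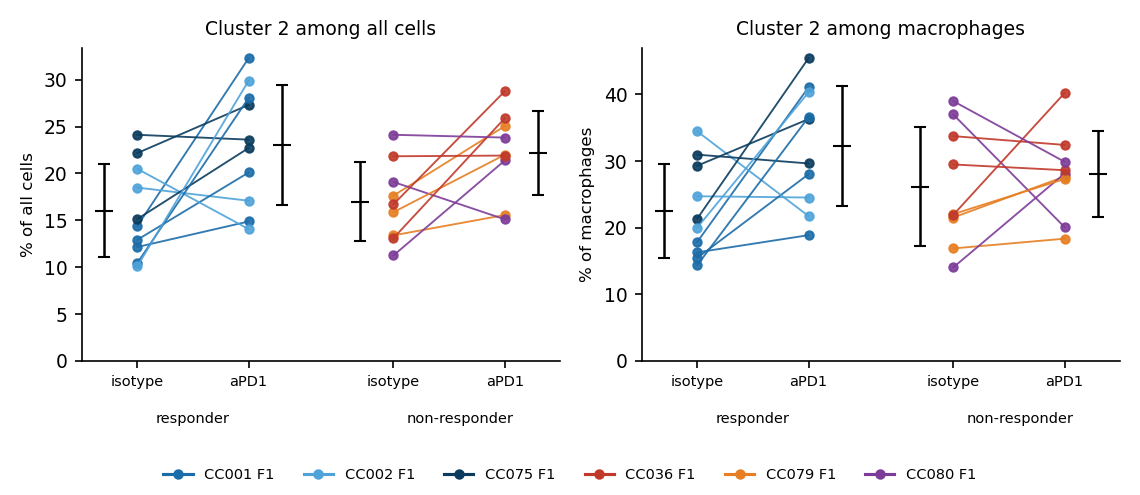
Share of cluster 2 among all cells and among macrophages in each tumor (percent) by class and treatment, with lines joining tumors of the same pool and strain and bars giving mean and SD. Responder strain tumors averaged 16.03% of all cells with isotype and 23% with aPD1, and the groups overlapped.

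Of the responder strains, CC001 F1 had the widest gap, with 10.4 to 14.4% of all cells in 4 isotype tumors and 14.9 to 32.3% in 4 aPD1 tumors. Without CC001 F1 the responder difference was 4.03 points (exact p = 0.310). Within pools 1 to 6 it was 4.00 points (exact p = 0.421) and within pools 7 to 12 it was 9.93 points (exact p = 0.0317). A share falls when other cells increase, and in these data fewer cells of a type and a larger number of the others cannot be told apart.

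Markers of other cells were read beside these results. T and NK genes summed over 13 members reached 0 to 29.0 CPM in cluster 2 of responder isotype tumors, 4.93 to 38.03 CPM with aPD1, 3.11 to 40.9 CPM in non-responder isotype tumors and 2.99 to 11.3 CPM with aPD1. Granulocyte genes (10 members) spanned 28.8 to 125.8, 42.8 to 118.9, 35.6 to 87.8 and 26.8 to 115.7 CPM in the same order. Dendritic cell genes (10 members) spanned 4.94 to 48.4, 12.0 to 56.3, 5.72 to 35.5 and 4.38 to 22.3 CPM, and MC38 and epithelial genes (8 members) 8.94 to 53.1, 8.39 to 37.4, 25.5 to 94.6 and 23.5 to 53.9 CPM. Clec9a, a marker of cross-presenting dendritic cells, was higher in responder strains and with aPD1 in them, and the epithelial cadherin gene Cdh1 was lower in responder strains. The part of these cells in the class and aPD1 results was not tested. Leaving out cells with a T cell UMI gave 371 class calls and 345 aPD1 calls in responder strains.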

How the data were processed

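Tumor cells of 12 pools were profiled by 5′ single-cell RNA-seq. The authors aligned the reads with Cell Ranger to GRCm38, assigned cells to tumors by hashtag, filtered them and clustered them with Seurat 5.0.1; the deposited matrix holds raw UMI counts of 27457 genes in 93126 cells, and the deposited annotation gives cluster, strain, treatment and pool. Fold change and p-value columns of the authors were not used. How doublets were treated upstream is not given in the sources used here, and none were called.

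Counts were summed per tumor over cluster 2 cells (at least 20) and fitted with edgeR 4.0.16 (R 4.3.3; TMM, filterByExpr, quasi-likelihood F test, Benjamini-Hochberg threshold 0.05 over all genes). DESeq2 1.42.0 was an alternative. SE is the absolute log2 change over the square root of F. CPM are a gene's share of the summed counts. Depth per tumor was 103361 UMIs or more, and low-count genes are limited by counting error. On simulated data for the class comparison alone 96 of 99 genes changed by log2 1 and 66 of 99 changed by 0.5 were recovered, with 9 of 8932 unchanged genes called (9130 genes). The simulation gave tumors of a strain no shared effect. Its rates therefore do not describe the real class comparison, in which genes also differed between strains within a class.

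Tumors in the same pool and strain shared a library, and their deviations correlated at -0.0291 to 0.298, positive in 18 of 19 pairs. They were treated as pairs in the counts of pairs and in the change of shares. The replicate block of the aPD1 and interaction fits used the same pairs. The main aPD1 and interaction fits had strain but no pair term, and the rank-sum tests of shares between treatments were unpaired. Gene coordinates are from GENCODE vM21 (GRCm38), promoters from RefSeq.

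Named genes were the 5 markers, at most 4 called members of each list by size of change, and the 8 higher and 8 lower genes of smallest p with at least 10 CPM, without predicted genes. Members and lists were chosen with earlier results of these data known. Cd274, Irf1, Manf in the responder aPD1 comparison, genes of the cluster description outside the lists, and genes given only as values beside another comparison, were named after their values were seen.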

Additional observations from a re-analysis of the deposited data

Results flagged for a closer look

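In 19 of 184 tests of a gene's level or a share within a group of 9 or 10 tumors, 1 tumor stood far from the others. The critical value is set to flag about 5% for normally distributed values. CPM were often skewed, and the rate that chance gives for them was not tested. All values are CPM in cluster 2. The isotype tumor of CC002 F1 in pool 12, the smallest library (25 cells), was highest among responder isotype tumors for Ccl5 (1722), Il1r2 (203.2), Ptgs2 (328.9) and Rsad2 (232.2). Among the same tumors H2-DMb2 was highest in CC002 F1 of pool 5 (58.7). Among responder aPD1 tumors Ccl24 stood apart in CC001 F1 of pool 12 (437.1), Il1rn in CC075 F1 of pool 9 (799.6) and Ly6i in CC001 F1 of pool 2 (3173). Among non-responder isotype tumors the CC080 F1 tumor of pool 4 was highest for Ccl5 (1010), Iigp1 (193.7) and Slpi (139.4), and the CC036 F1 tumor of pool 8 for Il1r2 (92.0), Ndrg1 (184.1) and Ptgs2 (181.5). The non-responder aPD1 tumors that stood apart were all from CC036 F1 hosts: pool 9 for Ccl24 (909.8), pool 8 for Gbp4 (73.5) and Osm (450.1), and pool 10 for Nos2 (97.3) and Slpi (120.9).

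For 14 genes the aPD1 effect differed between the classes by the edgeR interaction test. The effect in responder strains minus that in non-responder strains, on the log2 scale, was positive for Ramp3 (2.77), Procr (2.40), Csf3r (1.22), Il15 (1.09), Birc3 (0.66), Parp14 (0.65), Epsti1 (0.60) and Fam49a (0.60). It was negative for Tmem273 (-1.05), Sdf2l1 (-0.999), Hyou1 (-0.98), Nop16 (-0.88), Manf (-0.81) and Ppp1r14b (-0.64). Ramp3 and Procr were below 10 CPM and outside the rule for named genes.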

How the results depend on the processing

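The terms for 4 groups of consecutive pools and the 6-library fit were chosen after seeing the data, the groups of pools were read from library identifiers and are not named as batches by any label, and the cause of a changed count was not tested. The class count of 359 was 564 with a term for pools 1 to 6 against 7 to 12, 683 with 4 groups of pools, 680 in aPD1 tumors, 11 in isotype tumors, 27 with 12 and 4 with 6 libraries, and 906 with the pool as replicate block. The responder aPD1 count of 314 was 529 with at least 50 cells and 735 with no expression filter, and the non-responder count of 0 was 18 with no filter. The interaction count of 14 was 153 with DESeq2, 102 with at least 50 cells, 46 with 2 and 111 with 4 groups of pools, 22 with library size scaling, 383 with no filter, 99 with the replicate block, 39 without cells with a T cell UMI and 6 without the tumors sharing an animal number. The strain count of 4139 was 1173 with the block. The count of genes whose class difference was higher or lower in cluster 2 than in the other macrophages, 27, was 14 against clusters 5 and 26 and 181 with no filter. Leaving out each strain in turn gave 238 to 694 (class), 33 to 62 (responder aPD1) and 0 to 18 (interaction).

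Values that did not pass the test changed sign as follows (log2). The class difference of Cxcl2 was 0.0047 with 12 libraries and 0.25 in isotype tumors, and without 1 strain -0.250 to 0.0672, and that of Osm -0.752 to 0.0415. The responder aPD1 change of Osm was 0.0171 with at least 50 cells. Without 1 strain it was -0.40 to 0.28 for Osm, -0.336 to 0.0899 for Cxcl2 and -1.55 to 0.72 for Ccl24, and the non-responder change -0.427 to 0.0229 for Osm and -1.08 to 0.54 for Ccl24. The interaction was, for Ccl24 and Osm, -0.0263 and -0.0478 with DESeq2, -0.71 and -0.22 with 4 groups of pools, -0.75 and -0.25 with 2, -0.50 and -0.18 with the block, -1.26 to 1.008 and -0.19 to 0.47 without 1 strain. For Ccl24 it was -0.0139 without cells with a T cell UMI and -0.0925 without the shared animal number. Against clusters 5 and 26 the difference was -0.0702 for Cxcl2, -0.30 for Il1b, -0.0181 for Osm and -0.36 for Ptgs2.

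Differences in the share of all cells also changed sign (percentage points). The class difference was 0.243 in isotype tumors of pools 1 to 6. In aPD1 tumors it was -0.192 with the block, -0.0463 without the shared number and -0.134 in pools 1 to 6. The difference of changes was -0.19 with the block and -0.376 in pools 1 to 6. Without 1 strain they were -2.86 to 1.42, -0.194 to 2.51 and -1.14 to 3.37, and the isotype class difference in macrophages -6.72 to 0.618. At 2000 UMIs the share of cells with a UMI was 74.0% for Il1b, 44.3% for Cxcl2, 21.6% for Osm, 13.7% for Ptgs2 and 5.60% for Ccl24, and without thinning 78.5%, 46.3%, 30.9%, 18.8% and 7.11%. The pairing with a block changed no other count of all genes called by over 1.5 times. With 25 to 843 cells a tumor, genes near 10 CPM are limited by counting error.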
